A study of Rattus norvegicus with 4 samples.

Results

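Primary rat microvessels on a stiff extracellular matrix with A83-01 were set against microvessels on a soft matrix without it. The comparison asks how near the inhibitor brought the stiff culture to the untreated soft state, which differences were still there, and which went past it. Its members were the 13408 genes, of 23608 in the count table, with at least 1 CPM, a count scaled to sequencing depth, in either library. Of these, 12526 reached that level in both libraries, 482 in soft only and 400 in stiff with A83-01 only. Just inside the threshold lay Popdc2, with 0.747 CPM (soft) and 1.01 CPM (stiff with A83-01), and just outside it lay Cdhr5, with 0.986 and 0.224 CPM.

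The series holds 4 libraries, 1 for each matrix without A83-01 and 1 for each matrix with it. All were made from wild-type primary vascular cells of rat (Rattus norvegicus), taken from the soft connective tissue under the skin, so no group carries a mutation that another lacks. No source used here states the strain, age, matrix stiffness, inhibitor dose or length of culture. The study's stated interest was what stiffness and A83-01 do to microvessels and to the change of pericytes into myofibroblasts.

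TGF-beta ligands are released in a latent form, bind a pair of type I and type II receptors, and act through SMAD transcription factors. A83-01 blocks the kinase of the type I receptors used by TGF-beta, activin and nodal, and leaves those of most BMP ligands largely free. Pericytes wrap the endothelial tube of small vessels. When they become myofibroblasts they take on smooth muscle actin filaments and lay down collagen, a change that both TGF-beta and a stiff surrounding are known to favour.

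Depth was between 32271844 and 33416200 counts per library, and 3 counts, the floor used for a gene with none, equalled 0.0842 to 0.103 CPM. Col1a1 took 4.05% of the counts in soft and 2.04% in stiff with A83-01, and mitochondrially encoded transcripts took 4.72% and 5.59%. The stiff libraries carry names of a different form from both soft ones, so a separate preparation, if there was one, cannot be told apart from stiffness. Endothelial (Cdh5), mural (Pdgfrb) and fibroblast (Pdgfra) markers were all present in every library. Skeletal muscle and keratinocyte markers were near 0, with summed levels of 4.6 to 9.98 CPM over 3 and 2.75 to 3.61 CPM over 2 detected genes. In bulk RNA of this kind, fewer cells of a type and less RNA per cell cannot be told apart.

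For each gene below, the level in every library is given in CPM, scaled by trimmed mean of M-values (TMM), first for soft, then for soft with A83-01, then for stiff, and last for stiff with A83-01. Folds compare stiff with A83-01 with soft unless another pair is named, and the bracketed range beside a fold is its 95% counting interval, which covers counting error only. A gene was counted as higher or lower when its ratio reached 2-fold and this interval excluded 1. The words rose and fell are kept for genes that passed the edgeR quasi-likelihood test, Benjamini-Hochberg adjusted, fitted as stiffness plus inhibitor over all 4 libraries.

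By the number of differing genes, stiff with A83-01 lay about as far from soft as untreated stiff did. Between stiff with A83-01 and soft, 995 genes were higher (7.42% of those tested) and 963 lower (7.18%), 1958 in all (14.6%). Over the same genes, 1766 differed between stiff and soft, 641 higher (4.78%) and 1125 lower (8.39%). The median absolute log2 ratio was 0.31 for both pairs. With total-count scaling the order turned, with 2001 genes apart for stiff with A83-01 over soft and 2024 for stiff over soft. Stiff with A83-01 differed from untreated stiff at 1575 genes and from soft with A83-01 at 1755, whereas soft with A83-01 differed from soft at 574, 255 higher (1.9%) and 319 lower (2.38%). At 4-fold, 276 genes were higher and 301 lower in stiff with A83-01 than in soft (4.3% together). All these pairs share libraries and are given side by side, without a test of their difference. The shares for stiff with A83-01 over soft, 7.42% higher and 7.18% lower, are the background for the counts of every gene list below.

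**Figure D1:**
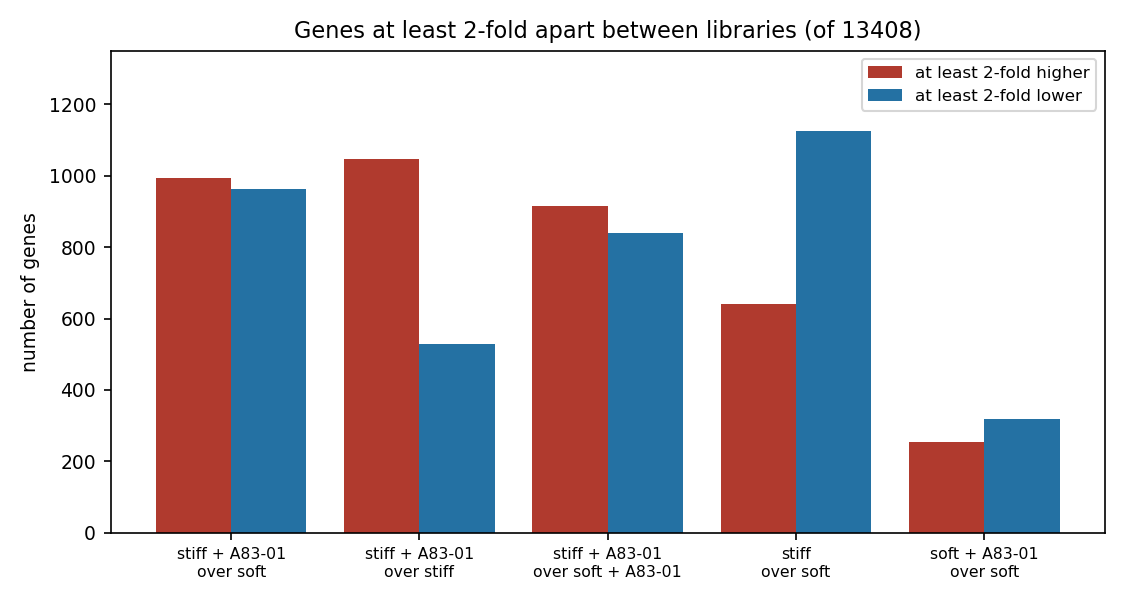
Number of genes (vertical axis, of 13408) at least 2-fold apart with a counting interval excluding 1, for 5 pairs of libraries (horizontal axis); red bars are genes higher in the first-named library and blue bars genes lower there. The pair of stiff with A83-01 over soft has 995 higher and 963 lower genes, against 641 and 1125 for stiff over soft.

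The genes that make up these totals were then sorted by where each stiff library stood against soft. Of the 641 genes higher in stiff than in soft, 331 were also higher in stiff with A83-01, 268 were back within 2-fold, and 42 were lower than soft. Of the 1125 genes lower in stiff, 591 were also lower in stiff with A83-01, 501 were back within 2-fold and 33 were higher than soft. A further 631 genes were higher and 330 lower in stiff with A83-01 while counted as neither higher nor lower in untreated stiff. These classes place a gene by a pair of ratios that share the soft library, so they describe the libraries and were not tested. Scaling by total counts, which moved the median log2 ratio of stiff over soft over all genes to −0.235, brought the number back from higher to 146 and the number back from lower to 879.

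The test over all 4 libraries called 47 genes up (0.351%) and 55 down (0.41%), all 102 of them also past 2-fold in the direct comparison. It has 1 residual degree of freedom, which is the difference between the inhibitor's effects on the stiff and soft matrix, so a gene whose A83-01 ratio differs between the matrices has a large error in it. The count moved strongly with scaling, to 25 up and 25 down with DESeq2 size factors and to 732 up and 515 down with total counts. With DESeq2 size factors the adjusted p of 16 genes named here, Angptl4, Ccl2, Ctgf, Cxcl1, Des, Lcn2, Ltbp4, Myl9, Nfkbiz, Nr4a1, Olfml1, RT1-CE16, Rasl11b, Tnfsf10, Tpm2 and Vwf, lay between 0.057 and 0.0732 in the edgeR quasi-likelihood test, Benjamini-Hochberg adjusted. Nothing in the labels says that the libraries came from separate animals or cultures. These p-values rest on that 1 residual degree of freedom together with an error level that the test borrows from all genes. With 1 library per group, they do not measure the spread between replicates. Over all 13408 genes, unadjusted p lay under 0.05 for 1323 up and 1232 down in the edgeR quasi-likelihood test. After adjustment, the totals up and down were 390 and 352 by DESeq2, and 106 and 110 by limma-voom. Counts of these kinds in the gene lists below have these totals as their background.

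**Figure D2:**
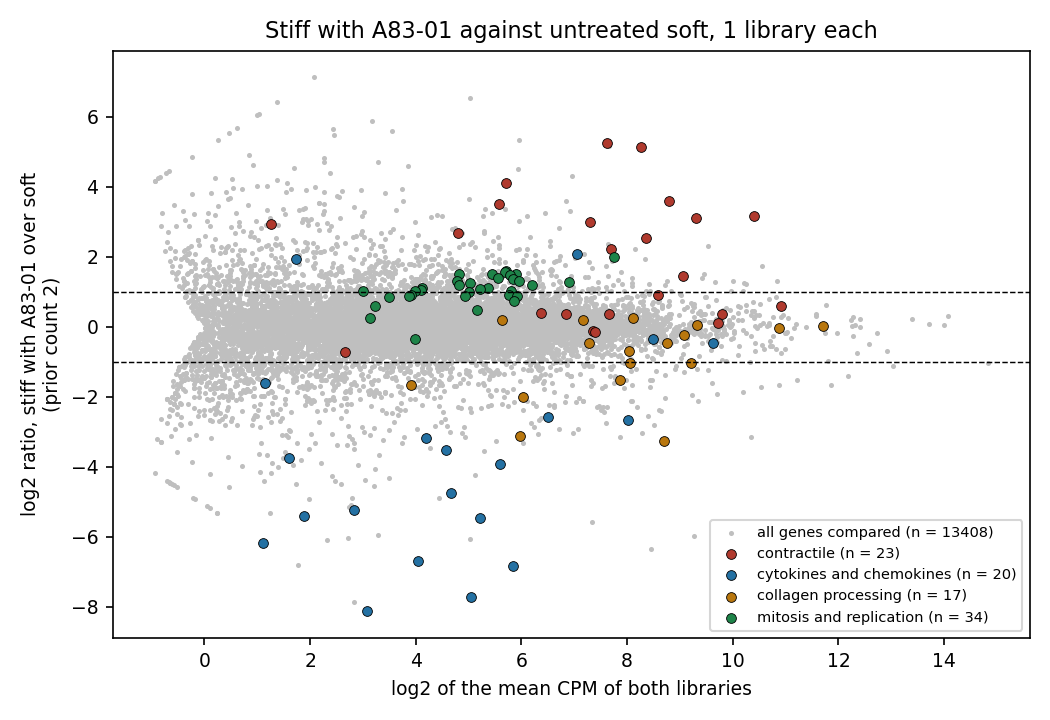
Log2 ratio of stiff with A83-01 over soft (vertical axis) against log2 of the mean CPM of both libraries (horizontal axis), 1 point per gene; dashed lines mark 2-fold and colours mark 4 gene lists. Contractile genes lie above the upper line or near 0, most cytokine genes lie below the lower line, and mitosis genes form a compact band around the upper line.

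Smooth muscle contractile genes stayed far above their soft level in stiff with A83-01. Of 23 measured contractile genes, 13 were higher (56.5%, against 7.42% of all genes) and 0 lower. Their median log2 ratio was 2.22, beside 2.18 in stiff over soft and 0.01 for all genes. Taken gene by gene with TMM scaling, the median of stiff with A83-01 over stiff was −0.452. The summed level of the list was 5088, 3893, 18512 and 13004 CPM. With total-count scaling the list medians were 2.268 with A83-01 and 1.945 in untreated stiff. The test called 8 up. With DESeq2 size factors it called 5. Both actins that mark smooth muscle were among the higher genes. Acta2, the alpha actin by which myofibroblasts are recognised, stood at 271, 88.9, 3691 and 2428 CPM, so stiff with A83-01 was 8.96-fold above soft (8.77 to 9.15). Its enteric relative Actg2 stood at 9.95, 7.97, 641 and 385 CPM, 38.7-fold above soft (34.8 to 43.3). In each matrix the A83-01 library was the lower one for both, yet neither stiff library came near a soft one.

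Actg2 rose by 5.27 in log2 units (SE 0.274, adjusted p = 0.0167 in the edgeR quasi-likelihood test, Benjamini-Hochberg adjusted), as did the smooth muscle myosin heavy chain Myh11 by 5.13 (SE 0.267, adjusted p = 0.0167). Myh11 stood at 17.0, 17.7, 718 and 597 CPM, so each stiff library lay far above each soft one. The thin-filament nucleator Lmod1 stood at 5.65, 3.97, 105 and 99.3 CPM and also rose, by 4.16 (SE 0.225). Myl9, the regulatory light chain, Synpo2, an actin-bundling protein, Mylk, the light chain kinase, Tpm2, a tropomyosin, and the intermediate filament desmin, Des, were the other genes that rose. Acta2, Tagln and Cnn1 did not pass, at adjusted p = 0.0617, 0.0567 and 0.0528 in the edgeR quasi-likelihood test, Benjamini-Hochberg adjusted.

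Those 3 genes were lower with A83-01 on each matrix. Calponin, Cnn1, stood at 7.47, 1.28, 150 and 48.3 CPM, and transgelin, Tagln, at 130, 38.3, 2101 and 1126 CPM. Even so, stiff with A83-01 lay 6.46-fold (5.65 to 7.41) and 8.67-fold (8.40 to 8.94) above soft. The coactivator Myocd, which switches on smooth muscle genes, stood at 0.508, 0.507, 6.30 and 4.26 CPM. Its partner Srf was close in all libraries, at 100, 90.6, 150 and 129 CPM.

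**Figure D3:**
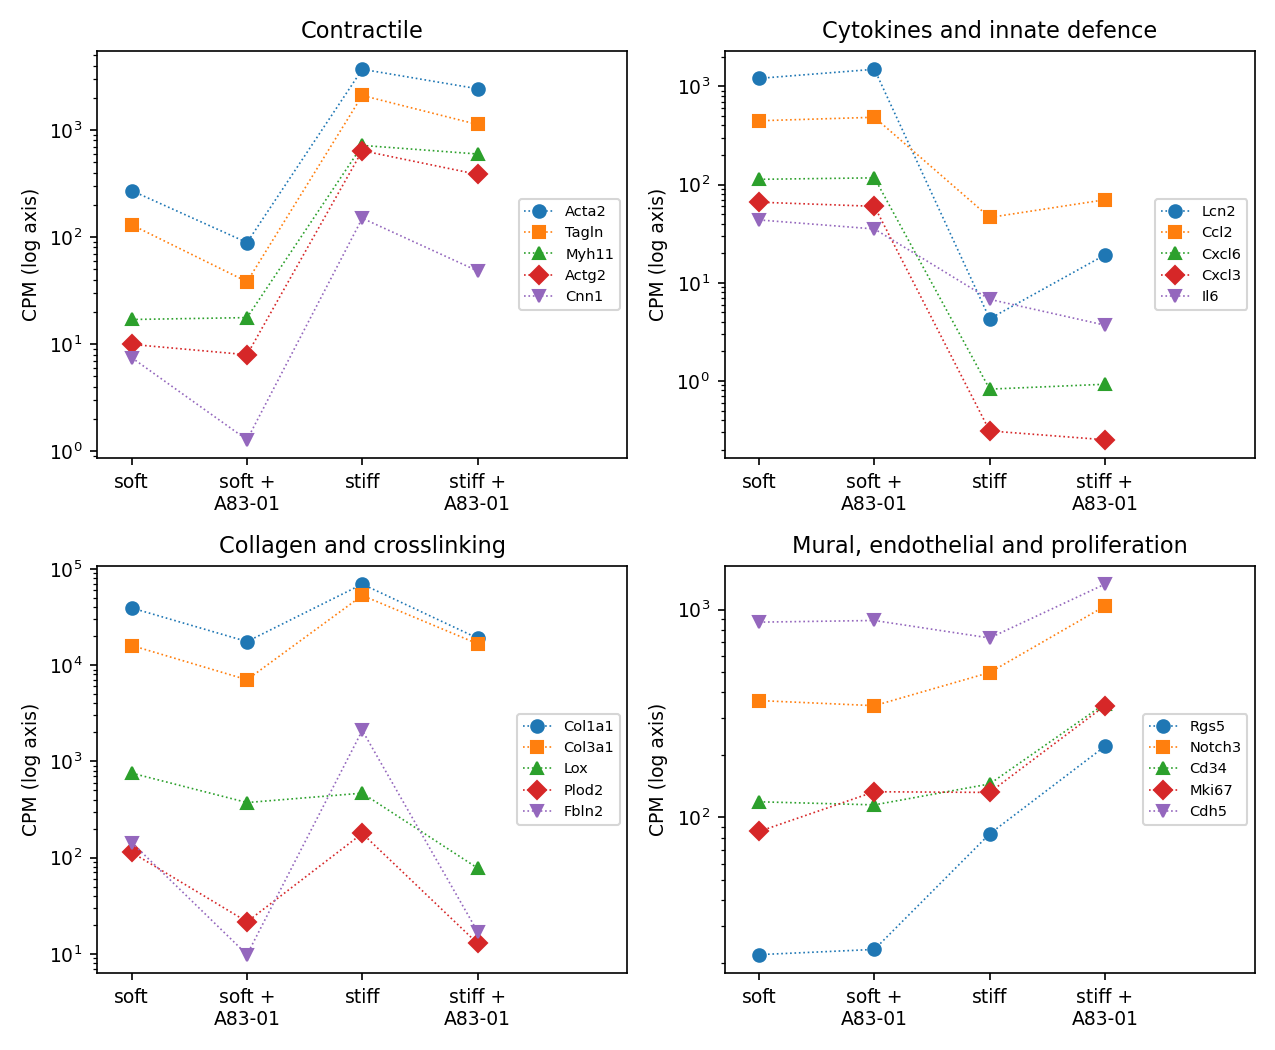
CPM on a log axis (vertical) in the 4 libraries (horizontal), 1 point per library and gene, in 4 panels; dotted lines join the libraries for the eye only. Contractile genes are high and cytokine genes low in both stiff libraries, while Lox, Plod2 and Fbln2 reach or pass below their soft level in stiff with A83-01.

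Among the TGF-beta genes, Tgfb2 and Tgfb3 were above soft in both stiff libraries, and several targets were below soft in stiff with A83-01. Of 11 measured ligands and receptors, 2 were higher (18.2%, against 7.42% of all genes) and 3 lower (27.3%, against 7.18%). The test called 2 up. Tgfb3, a TGF-beta isoform, stood at 11.8, 9.10, 393 and 236 CPM, 19.9-fold above soft (18.0 to 22.1), and rose by 4.31 in log2 units (SE 0.241, adjusted p = 0.0181 in the edgeR quasi-likelihood test, Benjamini-Hochberg adjusted). Tgfb2 stood at 21.7, 18.5, 118 and 102 CPM and rose by 2.24 (SE 0.172). The isoform Tgfb1 did not follow, at 391, 303, 505 and 254 CPM. The receptor gene Tgfbr2 was higher in both A83-01 libraries than in both others, at 196, 377, 170 and 346 CPM. Inhba, the activin A subunit, was lowest in stiff with A83-01, at 26.5, 21.0, 19.8 and 8.33 CPM.

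Of 18 TGF-beta response genes, 1 was higher and 7 were lower, with a median log2 ratio of −0.65. The test called 1 up, Ctgf, and 1 down, Ltbp2. Ctgf, a matricellular target of both TGF-beta and YAP, stood at 55.4, 14.9, 879 and 234 CPM, 4.22-fold above soft (4.01 to 4.44). It was lower with A83-01 on each matrix, and the stiff library with A83-01 remained above the untreated soft one. The SMAD feedback genes lay on the opposite side of soft. Pmepa1, which sequesters SMADs, stood at 162, 36.7, 324 and 34.6 CPM, 4.69-fold below soft (4.41 to 4.99). Skil, a SMAD corepressor, stood at 21.4, 12.3, 18.9 and 5.64 CPM, and the inhibitory Smad7 at 16.4, 10.9, 12.5 and 7.13 CPM. All 3 were lowest in stiff with A83-01, and none passed the test. Tgfbi, a secreted adhesion protein named for its induction by TGF-beta, came back to soft: it stood at 34.8, 16.8, 591 and 37.8 CPM, 1.09-fold from soft (1.00 to 1.18).

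Of 14 genes of BMP signalling and the ID family, 1 was higher (7.14%, against 7.42% of all genes) and 4 lower (28.6%, against 7.18%). The test called 0. At unadjusted p under 0.05, 1 was up and 7 down, DESeq2 called 1 up and 3 down, and limma-voom called 1 each way. Id4, a dominant-negative helix-loop-helix factor, stood at 6.36, 9.97, 10.9 and 25.7 CPM, highest in stiff with A83-01. Id1 and Id3 were nearer to soft than in untreated stiff: Id1 stood at 25.9, 40.9, 6.67 and 15.9 CPM, and Id3 at 206, 306, 125 and 211 CPM. The secreted BMP antagonist Grem1 went below soft, at 48.1, 16.5, 84.9 and 9.57 CPM, 5.03-fold lower (4.47 to 5.67). Noggin, Nog, another antagonist, was low in both stiff libraries, at 7.80, 8.66, 0.998 and 0.729 CPM.

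Fibrillar collagens were near or below their soft level in stiff with A83-01. Of 22 fibrillar collagen and matrix genes, 1 was higher (4.55%, against 7.42% of all genes) and 10 were lower (45.5%, against 7.18%). Their median log2 ratio was −0.86, beside 0.65 in stiff over soft. The test called 1 down and 0 up. Col3a1 stood at 15996, 7047, 52984 and 16688 CPM, so stiff with A83-01 was 1.04-fold above soft (1.04 to 1.05). Col1a1, the main collagen I chain, stood at 39252, 17577, 69475 and 19079 CPM, 2.06-fold below soft (2.05 to 2.06) and close to soft with A83-01. The fibril-nucleating Col11a1 went further, at 8.10, 0.298, 79.2 and 3.70 CPM. Periostin, Postn, a matricellular protein of healing tissue, stood at 526, 293, 1243 and 183 CPM, 2.87-fold below soft (2.79 to 2.96). Col11a1 and Postn were thus above soft in untreated stiff and below it with the inhibitor.

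Several proteoglycan and matricellular genes lay below soft in both stiff libraries. Decorin, Dcn, stood at 11520, 21955, 1442 and 5279 CPM, Thbs2, an antiangiogenic thrombospondin, at 2859, 2847, 700 and 897 CPM, and versican, Vcan, at 1310, 1762, 630 and 345 CPM. Osteopontin, Spp1, stood at 119, 79.9, 25.4 and 12.0 CPM and fell by 3.31 (SE 0.252, adjusted p = 0.0264 in the edgeR quasi-likelihood test, Benjamini-Hochberg adjusted). Fibromodulin, Fmod, a small proteoglycan like decorin, lay above soft in both, at 1.88, 0.448, 6.09 and 6.48 CPM.

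Collagen-modifying enzymes were often lower than soft in stiff with A83-01. Of 17, 7 were lower (41.2%, beside 7.18% of all genes) and 0 higher, against 1 lower and 1 higher in stiff over soft. Of these 17, 0 passed the test, with 6 down at unadjusted p under 0.05, 6 down by DESeq2 and 0 by limma-voom. Lysyl oxidase, Lox, which starts collagen crosslinks, stood at 754, 373, 467 and 77.7 CPM, 9.70-fold below soft (9.33 to 10.1). Plod2, the lysyl hydroxylase of collagen telopeptides, stood at 113, 21.5, 178 and 12.8 CPM, 8.76-fold below soft (7.95 to 9.67). The prolyl hydroxylase subunits P4ha3 (104, 45.5, 129 and 26.0 CPM) and P4ha2 (347, 272, 340 and 121 CPM) were likewise lowest in stiff with A83-01. Loxl2, at 250, 181, 543 and 301 CPM, and the collagen chaperone Serpinh1, at 3326, 2312, 5975 and 3351 CPM, were instead back at soft.

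Elastic fibre genes went in opposite directions, 5 of 14 higher and 4 lower. Efemp1, the fibulin-3 gene, stood at 2.93, 41.3, 1.44 and 121 CPM, high in both A83-01 libraries and 41.2-fold above soft (33.8 to 50.9) in the stiff one. Fbln2, the fibulin-2 gene, did the reverse, at 143, 9.79, 2096 and 17.0 CPM, 14.7-fold above soft (14.2 to 15.1) in untreated stiff and 8.42-fold below it (7.74 to 9.18) with the inhibitor. Elastin, Eln, stood at 1.08, 2.03, 66.3 and 8.84 CPM and so kept part of its stiff level. The latent TGF-beta binding proteins Ltbp4 and Ltbp2 passed the test in opposite directions. Ltbp4 rose (9.89, 7.79, 47.1 and 37.5 CPM) and Ltbp2 fell (237, 96.1, 59.7 and 31.5 CPM), by 1.92 (SE 0.201) and 2.92 (SE 0.215) on the log2 scale.

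In the vessel's basement membrane, 4 of 16 genes were higher and 1 lower, and the test called 0, with 6 up and 1 down at unadjusted p under 0.05, 4 up and 1 down by DESeq2 and 0 by limma-voom. The collagen IV chain Col4a1 was alike in all libraries, at 9965, 8379, 10396 and 11528 CPM. Col18a1, which carries endostatin, stood at 1056, 1071, 1243 and 2605 CPM, and the laminin chain Lama5 at 83.4, 86.5, 131 and 225 CPM. Both were distinctly higher in stiff with A83-01 than in the other libraries. Of 19 proteases and inhibitors, 2 were higher and 8 lower. The test called 0, with 3 up and 8 down at unadjusted p under 0.05, 2 up and 8 down by DESeq2 and 2 down by limma-voom. Gelatinase Mmp9 stood at 2322, 2454, 513 and 263 CPM, 8.83-fold below soft (8.64 to 9.02), and stromelysin Mmp3 at 65.8, 101, 6.02 and 3.45 CPM. Timp3, a matrix-bound protease inhibitor, was instead highest there, at 42.4, 66.5, 58.1 and 171 CPM.

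Inflammatory cytokines and chemokines did not return to soft. Of 20 measured, 16 were lower (80.0%, against 7.18% of all genes) and 2 higher. The list's median log2 ratio was −3.84, also with its 2 members at 0 counts placed at their bound, beside −4.75 in stiff over soft. The test called 10 down. With DESeq2 size factors it called 8. Promoters are shown for 4 of the lower genes that hold the binding motif of NF-kB, the factor that drives many cytokine genes. Each is 300 bases of RefSeq sequence on build GRCr8, from 250 bases before to 50 bases after the gene's start, with the motif in capitals.
Il6 (chr4:5894526-5894825, minus strand): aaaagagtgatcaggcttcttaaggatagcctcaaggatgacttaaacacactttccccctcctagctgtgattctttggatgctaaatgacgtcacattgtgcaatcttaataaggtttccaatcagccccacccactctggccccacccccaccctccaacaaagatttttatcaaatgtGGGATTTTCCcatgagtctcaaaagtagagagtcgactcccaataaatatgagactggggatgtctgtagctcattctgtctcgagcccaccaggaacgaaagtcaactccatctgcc
Cxcl1 (chr14:17479272-17479571, minus strand): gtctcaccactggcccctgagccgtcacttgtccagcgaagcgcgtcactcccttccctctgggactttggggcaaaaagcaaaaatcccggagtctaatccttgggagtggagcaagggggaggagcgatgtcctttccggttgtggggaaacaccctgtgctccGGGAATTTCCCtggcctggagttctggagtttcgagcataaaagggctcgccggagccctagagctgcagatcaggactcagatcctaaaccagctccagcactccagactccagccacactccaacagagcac
Cxcl2 (chr14:17467206-17467505, minus strand): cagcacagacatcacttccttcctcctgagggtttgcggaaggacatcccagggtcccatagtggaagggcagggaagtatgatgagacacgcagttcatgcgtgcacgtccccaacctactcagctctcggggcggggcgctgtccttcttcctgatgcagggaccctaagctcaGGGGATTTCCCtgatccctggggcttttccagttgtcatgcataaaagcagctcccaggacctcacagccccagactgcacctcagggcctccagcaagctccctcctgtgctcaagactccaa
Cxcl6 (chr14:17596368-17596667, minus strand): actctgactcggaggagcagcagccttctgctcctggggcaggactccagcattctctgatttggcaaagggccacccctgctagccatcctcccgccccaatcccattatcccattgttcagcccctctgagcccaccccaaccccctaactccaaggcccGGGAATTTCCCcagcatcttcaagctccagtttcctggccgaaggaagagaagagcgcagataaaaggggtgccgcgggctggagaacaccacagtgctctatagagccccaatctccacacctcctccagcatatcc

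The NF-kB motif was searched on both strands, and in Cxcl1, Cxcl2 and Cxcl6 overlapping matches on both strands make up the capitals. It was found in 6 of 14 cytokine promoters that could be matched by symbol (42.9%), those of Il6, Cxcl1, Cxcl2, Cxcl6, Ccl20 and Cxcl10. The shares were 4.18% of all 33469 promoters and 5.12% of the 9264 matched measured genes. Cxcl10 holds the motif and lay above soft. Il1a, Il1b and Ccl7 hold none and lay below soft, and Il33 holds none and lay above it. Whether a match goes with a lower level was not tested. In 17 contractile promoters the NF-kB motif was found in 0. The CArG box, bound by SRF, was found in 3 of those 17 (17.6%), Cnn2, Srf and Ldb3, and in 1.64% of all promoters. The AP-1 motif, TGACTCA or its reverse complement TGAGTCA, was found in 3 of 14 cytokine and 3 of 17 contractile promoters, and in 4.63% of all. A match describes letters in this window and is not a measured site.

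The genes shown above were lower in both stiff libraries than in both soft ones. Cxcl6 stood at 113, 117, 0.826 and 0.926 CPM, 123-fold below soft (87.1 to 178), and Cxcl1 at 91.2, 109, 2.06 and 6 CPM. Both encode neutrophil-attracting chemokines. Cxcl2, of the same family, had 464 counts in soft, 0 in stiff and 11 in stiff with A83-01, 44.9-fold below soft (24.9 to 90.6) in the last. Interleukin 6, Il6, stood at 43.6, 35.3, 6.78 and 3.70 CPM, 11.8-fold below soft (9.84 to 14.2). Of these 4, Cxcl6, Cxcl1 and Il6 fell in the test, Cxcl6 by 6.96 in log2 units (SE 0.205, adjusted p = 0.00721 in the edgeR quasi-likelihood test, Benjamini-Hochberg adjusted), and Cxcl2 did not pass.

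Other cytokine genes were also lower in both stiff libraries. Cxcl3 stood at 66.1, 60.0, 0.310 and 0.252 CPM, 262-fold below soft (138 to 574), and the interleukin Il1a at 32.5, 15.5, 0.344 and 0.252 CPM, 129-fold below (67.6 to 283). Csf3, the granulocyte growth factor, had 567 counts in soft against 0 in both stiff libraries, at least 201-fold lower with A83-01. Its adjusted p was 0.0264 in the edgeR quasi-likelihood test, and from 2.06e-14 with total counts to 0.325 with DESeq2's Wald test under the alternatives. The monocyte chemokine Ccl2 stood at 446, 484, 46.2 and 70.0 CPM and fell by 2.67 (SE 0.258). Lif, an interleukin-6 family cytokine, stood at 72.7, 45.8, 8.70 and 1.60 CPM and did not pass.

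Few members of that list left the pattern. Cxcl12, the stromal chemokine that holds CXCR4-bearing cells, stood at 915, 1249, 41.0 and 665 CPM, back to 1.37-fold below soft (1.35 to 1.40) from 22.3-fold below (21.1 to 23.7) in untreated stiff. The alarmin Il33 was higher with A83-01 on each matrix, at 51.1, 115, 67.3 and 215 CPM, 4.20-fold above soft (3.99 to 4.43). The interferon-induced Cxcl10 stood at 1.34, 3.46, 0.688 and 5.27 CPM.

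Secreted innate defence genes came part of the way back. Of 21, 13 were lower and 2 higher, with a median log2 ratio of −1.75, beside −3.27 in stiff over soft, and the test called 2 down. With DESeq2 size factors it called 0. Limma-voom called 5 down and DESeq2's Wald test 11 down and 1 up. Lcn2, which binds bacterial siderophores, stood at 1205, 1491, 4.3 and 19.2 CPM and fell, 62.7-fold below soft (58.2 to 67.7). Complement C3 stood at 696, 387, 1.14 and 8.47 CPM, and the antiprotease Slpi at 318, 477, 0.482 and 6.56 CPM. All 3 lay several-fold above untreated stiff and far below soft. C1r, a protease of the complement start, was back at 1606 CPM from 619 CPM in stiff, beside 2473 CPM in soft. C4b went past soft, at 28.1, 45.5, 2.61 and 82.7 CPM, 2.94-fold higher (2.73 to 3.16). Prostaglandin synthase Ptgs2 moved away from soft instead, at 64.1, 58.6, 3.89 and 0.898 CPM.

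Of 15 NF-kB subunit and feedback genes, 4 were lower and 0 higher, and the test called 1 down, Nfkbiz. Nfkbiz, a cofactor of NF-kB at cytokine promoters, stood at 77.8, 72.1, 22.2 and 22.3 CPM, with no difference between the stiff libraries. The inhibitor Nfkbia stood at 106, 131, 33.9 and 49.4 CPM and the deubiquitinase Tnfaip3 at 26.5, 29.5, 8.43 and 9.09 CPM. Of 16 interferon response genes, 3 were higher and 1 lower. The test called 0, with 4 up and 1 down at unadjusted p under 0.05, 1 down by DESeq2 and 0 by limma-voom. Their median log2 ratio was 0.52, beside −0.49 in stiff over soft. Mx2, an antiviral GTPase, stood at 0.508, 0.537, 0.654 and 3.34 CPM, and Bst2, which tethers budding virus, at 13.9, 15.4, 11.9 and 34.6 CPM. Both were highest in stiff with A83-01.

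Some pericyte and mural cell markers were higher than soft and others were level with it. Of 19 pericyte and mural markers, 8 were higher and 1 lower, with a median log2 ratio of 0.20, and their summed level was 4505, 6108, 5078 and 6387 CPM. The test called 1 up, Des, which also counts as contractile. Rgs5, a G-protein regulator abundant in pericytes, stood at 21.9, 23.2, 83.4 and 220 CPM, 10.0-fold above soft (9.31 to 10.9), but did not pass. Notch3, the Notch receptor of mural cells, stood at 365, 345, 498 and 1039 CPM, 2.85-fold above soft (2.79 to 2.91). The channel Kcnj8 stood at 37.6, 41.7, 45.9 and 99.1 CPM. Pdgfrb (1239, 881, 1591 and 1470 CPM) and Cspg4 (76.5, 54.9, 115 and 78.7 CPM), the receptor and proteoglycan used to sort pericytes, were within 1.19-fold of soft. Angpt1, the mural ligand of the endothelial receptor Tek, was the lower member, at 33, 27.2, 13.7 and 10.4 CPM.

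Endothelial markers differed from soft in both directions. Of 21, 3 were higher (14.3%, against 7.42% of all genes) and 4 lower (19%, against 7.18%). Their median log2 ratio was 0.70 and their summed levels were 3031, 2895, 2473 and 3946 CPM. The test called 2 down. VE-cadherin, Cdh5, stood at 870, 886, 730 and 1325 CPM, 1.52-fold above soft (1.5 to 1.55), and Cd34 at 119, 115, 145 and 353 CPM, 2.97-fold above soft (2.87 to 3.08). The angiopoietin receptor Tek stood at 8.90, 12.4, 8.67 and 23.0 CPM and the apelin receptor Aplnr at 2.96, 12.5, 1.34 and 19.8 CPM. All 4 were highest in stiff with A83-01. Von Willebrand factor, Vwf (126, 48, 31.2 and 18.6 CPM), and Esm1, a tip cell proteoglycan (71.2, 33.4, 31.8 and 15.0 CPM), fell by 2.76 (SE 0.262) and 2.25 (SE 0.188) on the log2 scale and were lowest in the same library. Pecam1 was not analysed here.

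Fibroblast markers were mixed, with 8 of 18 higher and 3 lower, and the test called 1 up. Igfbp6, an IGF-II binding protein, rose, at 6.42, 12.7, 18.5 and 44.9 CPM, and tetranectin, Clec3b, was high in both A83-01 libraries, at 4.09, 39.0, 7.74 and 38.4 CPM. Pdgfra, the defining receptor of fibroblasts, stood at 1054, 931, 198 and 241 CPM, 4.37-fold below soft (4.26 to 4.47). The activation marker Fap was lowest in stiff with A83-01, at 83.4, 44.7, 85.7 and 22.9 CPM. The summed level of the fibroblast list was 15785, 26675, 5300 and 9606 CPM. Decorin, Dcn, whose levels are given above, made up most of that sum in every library but untreated stiff. The list's median log2 ratio was instead above soft, at 0.79, beside 0.26 in stiff over soft, and 12 of 18 members had a ratio above 0.

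Single markers of blood and fat cells were low where the inflammatory genes were, but the leukocyte list as a whole was level with soft in stiff with A83-01. Of 12 leukocyte and macrophage markers, 1 was higher (8.33%, against 7.42% of all genes) and 3 lower (25%, against 7.18%). Their summed levels were 181, 234, 148 and 216 CPM. Their median log2 ratio was 0.007, with 6 of 12 above 0, beside −0.74 in stiff over soft. Adgre1, a macrophage receptor, stood at 24.5, 37.4, 0.447 and 2.38 CPM, the MHC class II chain Cd74 at 5.74, 10.8, 0 and 0.365 CPM, and the pan-leukocyte Ptprc at 2.90, 3.76, 0.791 and 1.21 CPM. Lysozyme, Lyz2, went the other way, at 1.58, 1.01, 23.5 and 6.09 CPM. Of 11 adipocyte markers, 1 was higher and 3 lower, with a median log2 ratio of −0.60, beside −1.14 in stiff over soft. Adipoq stood at 1.97, 1.49, 0 and 0.252 CPM, and Pparg, which directs adipocyte differentiation, at 5.92, 9.22, 8.22 and 20.8 CPM. Cd74 and Adipoq were thus at 0 in untreated stiff. The part of leukocytes and adipocytes in the cytokine result was not tested.

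**Figure D4:**
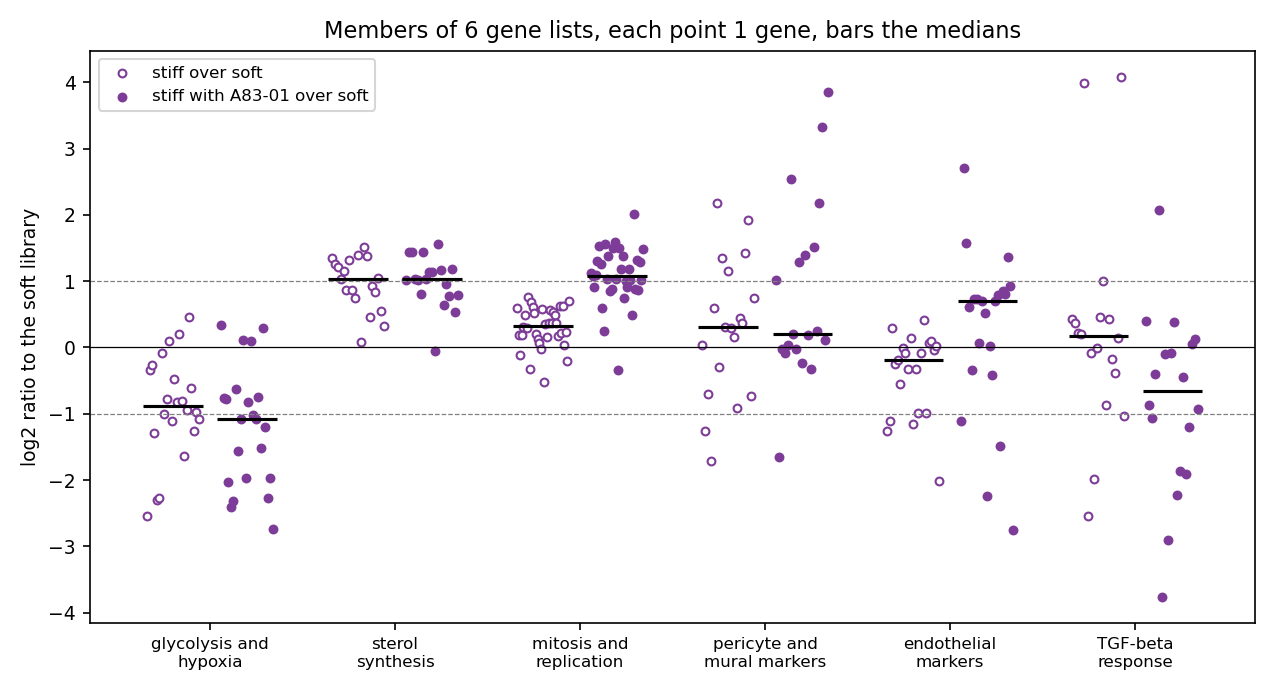
Log2 ratio to the soft library (vertical axis) for each member of 6 gene lists (horizontal axis); open points are stiff over soft, filled points stiff with A83-01 over soft, short bars the medians, and dashed lines 2-fold. Mitosis genes sit at a median of 0.33 without and 1.08 with A83-01, whereas sterol genes sit at 1.03 in both.

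Many proliferation genes were higher in stiff with A83-01 than in soft. Of 34 mitosis and replication genes, 22 were higher (64.7%, against 7.42% of all genes) and 0 lower, while in stiff over soft 0 were past 2-fold either way. Over untreated stiff, 11 of the 34 were past 2-fold in stiff with A83-01. The median log2 ratio was 1.08, beside 0.33 in stiff over soft and 0.16 in soft with A83-01 over soft. The test called 0, with 29 up and 0 down at unadjusted p under 0.05, 11 up by DESeq2, 0 by limma-voom and 22 up with total-count scaling. Mki67, which coats mitotic chromosomes, stood at 85.7, 133, 132 and 345 CPM, 4.02-fold above soft (3.86 to 4.19). The kinetochore protein Cenpf stood at 26.2, 36.8, 25.7 and 79.0 CPM, and cyclin A2, Ccna2, at 22.5, 24.8, 31.5 and 64.8 CPM. In both, the first 3 libraries lay close together and the last one apart. Cdkn1a, which encodes the CDK inhibitor p21, was lowest there, at 106, 106, 123 and 50.8 CPM. Gins2, of the replication helicase, was the only member below soft, at 17.6, 17.7, 12.3 and 13.9 CPM.

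Sterol synthesis genes stayed near their stiff level. Of 19, 12 were higher and 0 lower, with a median log2 ratio of 1.03 in stiff with A83-01 over soft and in stiff over soft. With total-count scaling these medians were 1.077 and 0.795. None passed the test (0 of 19), with 17 up at unadjusted p under 0.05, 10 up by DESeq2 and 4 up by limma-voom. Msmo1, a sterol oxidase, stood at 39.1, 47.7, 111 and 115 CPM, 2.94-fold above soft (2.76 to 3.13), and the synthase Hmgcs1 at 66.1, 87.3, 166 and 180 CPM. Both soft libraries lay below both stiff ones. Lanosterol synthase, Lss, was the exception, at 64.3, 78.1, 68.2 and 62.1 CPM.

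Genes of glycolysis and the hypoxia response were lower than soft in both stiff libraries. Of 22, 13 were lower and 0 higher, with a median log2 ratio of −1.08, beside −0.88 in stiff over soft, an order that turned with total-count scaling, at −1.03 and −1.11. Here too 0 passed the test, with 13 down at unadjusted p under 0.05, 9 down by DESeq2 and 0 by limma-voom. The vascular growth factor Vegfa stood at 336, 282, 159 and 50.4 CPM, 6.67-fold below soft (6.35 to 7.01). The lactate exporter Slc16a3 stood at 292, 308, 122 and 60.4 CPM, and the mitophagy receptor Bnip3 at 219, 258, 89.3 and 53.2 CPM. In all 3, untreated stiff lay between soft and stiff with A83-01. Egln3, a prolyl hydroxylase that marks HIF for decay, was instead equally low in both stiff libraries, at 54.2, 94.5, 11.2 and 10.8 CPM. Adrenomedullin, Adm, was back, at 121, 250, 20.7 and 153 CPM.

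The median of the amino acid synthesis and transport genes lay above soft in stiff and below it in stiff with A83-01. Of 20, 4 were lower and 0 higher in stiff with A83-01, while 5 were higher and 0 lower in stiff, and the medians were −0.51 and 0.62. In the test 0 passed, with 4 down at unadjusted p under 0.05 and 0 by DESeq2 and limma-voom. Trib3, a pseudokinase of the amino acid response, stood at 28.8, 10.8, 104 and 9.65 CPM, and asparagine synthetase, Asns, at 128, 71.4, 206 and 58.1 CPM. Phgdh, the first enzyme of serine synthesis, stood at 23.8, 7.70, 82.1 and 18.5 CPM. For all 3, each A83-01 library lay below its untreated partner. In the metallothionein and NRF2 list, 5 of 12 were lower and 1 higher. Mt1, a zinc-binding metallothionein, stood at 68.6, 135, 7.22 and 14.3 CPM and fell by 2.26 (SE 0.175, adjusted p = 0.0264 in the edgeR quasi-likelihood test, Benjamini-Hochberg adjusted). Haem oxygenase, Hmox1, stood at 380, 599, 143 and 113 CPM.

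**Figure D5:**
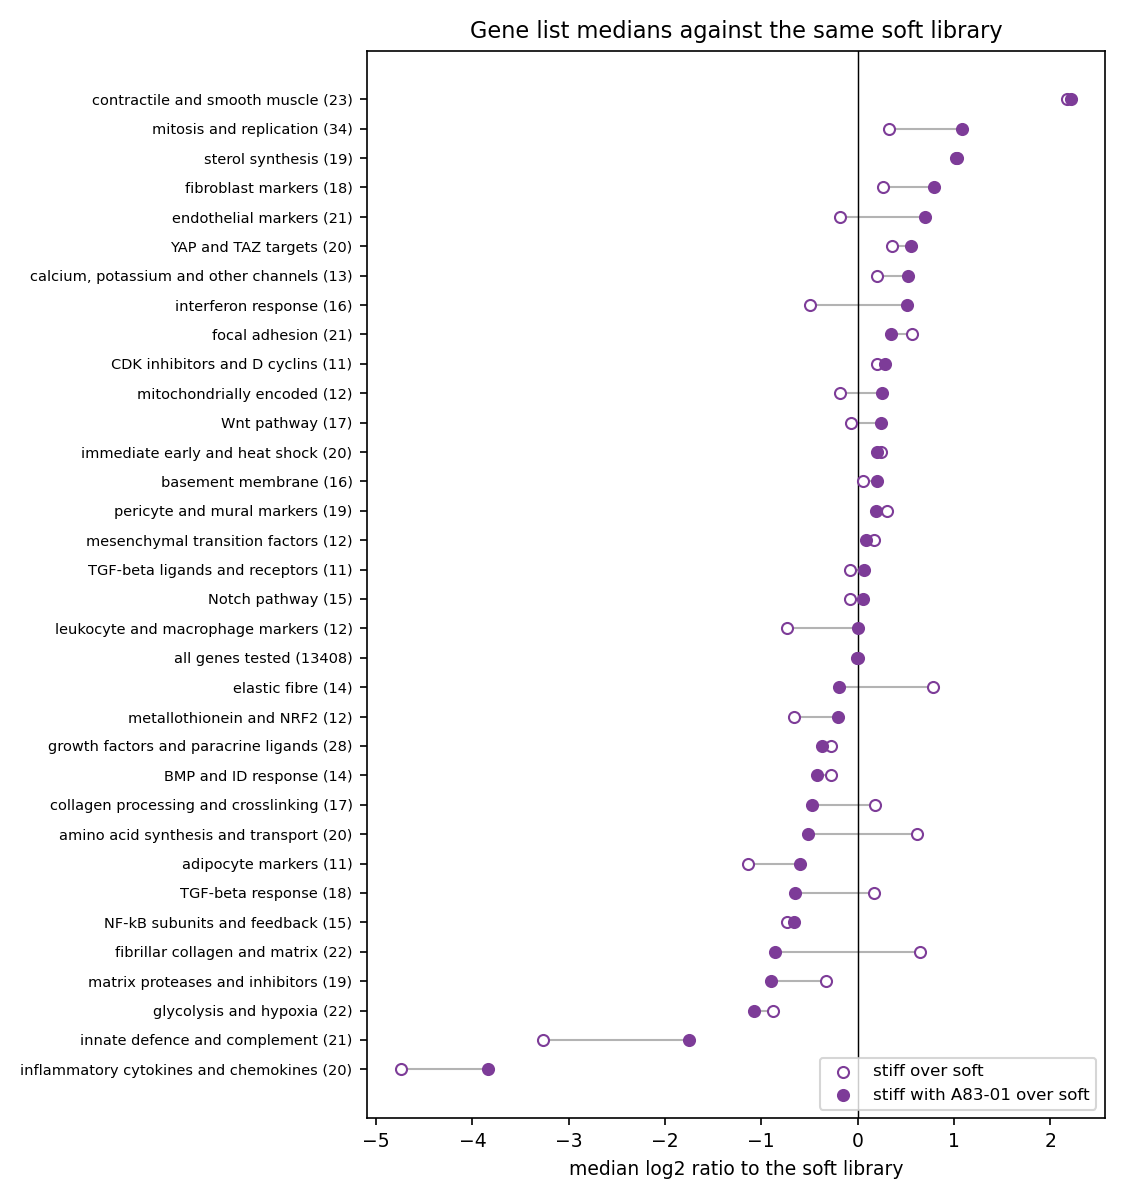
Median log2 ratio to the soft library (horizontal axis) of each gene list with at least 10 measured members (vertical axis, number of measured genes in brackets); open points are stiff over soft and filled points stiff with A83-01 over soft, joined by a grey line, with a black line at 0. The contractile list is highest at 2.22 and the cytokine list lowest at −3.84, and the points of the fibrillar collagen list lie on opposite sides of 0. With total-count scaling the open points of 6 of these lists change side of 0, with 0 of the filled points doing so.

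Growth factors and receptors for the matrix followed no common course. Of 28 growth factors and paracrine ligands, 4 were higher (14.3%, against 7.42% of all genes) and 8 lower (28.6%, against 7.18%). The test called 1 down, Angptl4, a lipase inhibitor, at 554, 334, 65.5 and 67.3 CPM. Igf1 stood at 4.54, 10.7, 2.55 and 28.3 CPM and Gas6, a ligand of TAM receptors, at 66.7, 66.0, 145 and 243 CPM, both highest in stiff with A83-01. Neuregulin, Nrg1, crossed soft, at 2.03, 1.64, 8.02 and 0.337 CPM. Pdgfb, by which endothelium recruits pericytes, was close in all libraries, at 213, 165, 174 and 164 CPM, as was Edn1, encoding endothelin, between soft and stiff with A83-01, at 4.36, 2.92, 8.15 and 5.13 CPM.

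Of 21 focal adhesion genes, 6 were higher and 0 lower. Of these 21, 0 passed the test, with 9 up and 2 down at unadjusted p under 0.05, 7 up by DESeq2 and 2 up by limma-voom. Vinculin, Vcl, stood at 134, 127, 411 and 510 CPM, 3.82-fold above soft (3.70 to 3.95), and kept its stiff level. The collagen integrin Itga11 did not keep it, at 81.1, 7.67, 648 and 49.5 CPM, 1.64-fold below soft (1.54 to 1.74). The laminin-binding Itga3 was high in both A83-01 libraries, at 11.4, 37.3, 8.98 and 40.4 CPM. Of 20 targets of YAP and TAZ, 3 were higher (15%, against 7.42% of all genes) and 0 lower, and the test called 1 up, Ctgf. Cyr61 (489, 349, 667 and 417 CPM) and Ankrd1 (1.70, 1.28, 1.51 and 2.58 CPM), used as readouts of YAP, were within 2-fold of soft. The stretch-gated channel gene Piezo2 was low in both A83-01 libraries, at 9.92, 2.48, 11.3 and 2.05 CPM, and Piezo1 was alike in all, at 310, 316, 299 and 255 CPM.

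Of 15 Notch pathway genes, 1 was higher (6.67%, against 7.42% of all genes) and 2 lower (13.3%, against 7.18%). The test called 0, with 4 up and 2 down at unadjusted p under 0.05, 1 up and 2 down by DESeq2 and 0 by limma-voom. The ligand Dll1 was lowest in stiff with A83-01, at 8.25, 3.73, 6.67 and 1.54 CPM, and the ligand Jag1 was within 2-fold of soft, at 40.5, 33.9, 90.9 and 70.1 CPM. Of 17 Wnt pathway genes, 2 were higher (11.8%) and 5 lower (29.4%). The test called 0, with 5 up and 3 down at unadjusted p under 0.05, 1 each way by DESeq2 and 0 by limma-voom. The transcription factor Lef1 crossed soft, at 2.87, 2.18, 10.1 and 0.757 CPM. Among 12 mesenchymal transition factors, Snai2 was higher in both stiff libraries, at 24.4, 24.7, 74.7 and 55.6 CPM, and vimentin, Vim, was level with soft, at 4862, 5154, 6803 and 4983 CPM. Of 20 immediate early and heat shock genes, Nr4a1, an orphan nuclear receptor, fell, at 422, 282, 36.6 and 47.2 CPM.

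Among the genes whose stiff level remained, those with the highest lower bound of the interval, outside these lists, included Cntn2. Cntn2, a cell adhesion molecule, stood at 0.627, 0.686, 52.3 and 64.2 CPM, 102-fold above soft (66.8 to 166), and rose by 6.71 in log2 units (SE 0.234, adjusted p = 0.0079 in the edgeR quasi-likelihood test, Benjamini-Hochberg adjusted). Tinagl1, a matricellular protein, stood at 10.9, 12.7, 353 and 392 CPM, 36-fold above soft (32.4 to 40), and also rose. Cdh20, a cadherin, had 0 counts in soft and 301 with A83-01 on stiff matrix, at least 94.2-fold higher. Olfml1 was higher in stiff with A83-01 than in stiff, at 0.239, 0.239, 4.78 and 17.8 CPM.

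Genes that came back to soft included some of the widest stiff differences. Gdf10, a TGF-beta superfamily ligand, had 458 counts in soft, 0 in stiff and 305 with A83-01 added, from at least 133-fold below soft to 1.60-fold below it (1.38 to 1.85). Myo7b, a myosin, stood at 14.8, 47.9, 0.138 and 21.7 CPM, and periplakin, Ppl, at 12.6, 87.0, 0.310 and 14.2 CPM. The neural adhesion molecule Ncam1 returned from above, at 42.9, 19.3, 282 and 52.9 CPM. In Myo7b, Ppl and Ncam1, soft with A83-01 differed from soft in the direction in which stiff with A83-01 differed from stiff.

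Several genes that went furthest below soft after being above it in stiff were low in both A83-01 libraries. Lrrc15, a marker of TGF-beta-driven fibroblasts, stood at 17.9, 0.686, 108 and 0.701 CPM, 25.6-fold below soft (17.1 to 39.8). Tenascin-W, Tnn, stood at 13.1, 1.13, 125 and 1.12 CPM, and Fibin at 8.75, 0.388, 28.7 and 0.533 CPM. In all 3 the A83-01 libraries were close to each other. Sox9, the cartilage transcription factor, had 72 counts in soft, 257 in stiff and 0 once A83-01 was added to it, at least 25.6-fold below soft. Overshoot above soft was seen in Igfbp5, an IGF binding protein, at 245, 337, 91.3 and 1225 CPM, 5.00-fold above soft (4.88 to 5.12). Steap4, a metalloreductase, stood at 6.51, 11.9, 1.93 and 46.9 CPM, and Crabp1, which binds retinoic acid, at 3.17, 24.9, 0.206 and 18.3 CPM. None of these 7 passed the test.

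Of the genes that differed from soft in stiff with A83-01 and not in stiff, Mlana, a melanosome protein, stood at 0.149, 4.75, 0.241 and 10.6 CPM and rose by 6.29 (SE 0.453, adjusted p = 0.0264 in the edgeR quasi-likelihood test, Benjamini-Hochberg adjusted). Tnfsf10, which encodes the death ligand TRAIL, had 0 counts in soft and 143 with A83-01 on stiff matrix, at least 44.8-fold higher, and rose. RT1-CE16, an MHC class I gene, had 184 counts in stiff with A83-01 and 0 in the other libraries. It belongs to a family of near-identical genes, so its count is uncertain, and its adjusted p was 0.622 with DESeq2's Wald test and 0.116 with limma-voom. On the lower side, Rasl11b, a small GTPase, stood at 83.1, 23.4, 48.7 and 8.56 CPM and fell by 3.26 (SE 0.309). Podnl1, a small proteoglycan, stood at 10.7, 1.31, 11.7 and 0.449 CPM. The BMP receptor Bmpr1b had 79 counts in soft, 61 in stiff and 0 with A83-01 on stiff matrix, at least 28-fold below soft.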

How the data were processed

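RNA of 4 rat microvessel cultures was sequenced, 1 library for each combination of soft or stiff matrix without or with A83-01, and groups were taken from the sample titles. Per the labels' protocols, mRNA was selected with oligo(dT) beads, and no strand marking or molecular identifiers are mentioned, so overlapping genes on opposite strands may share reads. The authors deposited a table of whole-number counts per gene and a table of FPKM values, which divide counts by transcript length and depth. Per the submitters' processing notes, HISAT2 and edgeR were used with build Rnor_6.0. Which program counted the reads is not stated in the sources used here. Gene names are those of the table, and 785 members are assembled transcripts without a gene name.

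Counts were analysed in R 4.3.3. TMM factors (edgeR 4.0.16) over all 4 libraries were 1.03 for soft and 0.876 for stiff without the inhibitor, and 1.04 for soft and 1.07 for stiff with it. Log2 ratios used a prior count of 2. The ratio of counts has a 95% conditional binomial (Clopper-Pearson) interval, and a gene at 0 was set to a floor of 3 counts to bound its fold. With 1 library per group there is no replicate test of the direct ratio. The tested contrast was the sum of the stiffness and inhibitor coefficients of an additive edgeR quasi-likelihood model, with Benjamini-Hochberg adjustment at 0.05 over all 13408 members. It differed from the direct log2 ratio by less than 0.1 for 96.3% of them. The SE beside a log2 change was derived from the test, as the absolute change divided by the square root of its F statistic. The test and the intervals were tested on simulated data. DESeq2 1.42.0, which gave 0 missing adjusted p-values, limma 3.58.1 (limma-voom), other scalings, filters, prior counts and the FPKM table were alternatives.

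Named genes were key genes of the pathways, the 6 leaders of each class, and, in each of 38 gene lists (675 genes), the most abundant member, the extremes and up to 6 past 2-fold. C4b, Cnn2, Cxcl2, Cxcl10, Mylk, Phgdh, Srf, Tgfbr2, Tpm2 and the genes at the CPM threshold fall outside this rule and were chosen after their values were seen. Members and lists were chosen with earlier results of these data known. Some genes are in more than 1 list. Promoters are from RefSeq on build GRCr8 and were matched by symbol.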

Additional observations from a re-analysis of the deposited data

How the results depend on the processing

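With 1 library per group, no replicate could be left out: the additive model would then have no residual degrees of freedom. No paired analysis was possible because each group is 1 library. The 995 higher genes became 276 at 4-fold, and the 963 lower genes became 301 at 4-fold, 1455 without a filter and 624 with at least 1 CPM in both libraries. Other scalings and prior counts left both counts within 1.5 times. Higher genes were 50.8% of those past 2-fold, and 47.8% to 55.4% under the alternatives.

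At 4-fold the classes held 97 genes remaining higher, 167 remaining lower, 57 back from higher, 205 back from lower, 3 overshooting above and 6 below soft, and 176 higher and 128 lower with A83-01 only. With at least 1 CPM in both libraries, 208 remained higher, 365 remained lower and 22 overshot below. Total-count scaling gave 146 back from higher and 879 back from lower. With at least 10 CPM in either library, stiff with A83-01 differed from soft at 984 genes, from stiff at 779 and from soft with A83-01 at 891, and stiff from soft at 826.

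The test's 47 up and 55 down became 390 and 352 with DESeq2's Wald test, 106 and 110 with limma-voom, 732 and 515 with total-count scaling, 25 and 25 with DESeq2 size factors, and 154 and 153 without a filter. Of 37 named genes that passed, 16 lost the call with DESeq2 size factors, 2 with DESeq2's Wald test and 1 with limma-voom, and 0 with total counts or without a filter. Of the log2 ratios of named genes under 3 alternatives, 706 stayed within their counting interval and 134 moved beyond it, and 0 of those past 2-fold changed sign. Total-count scaling moved the median of all genes by 0.05, and no list median of stiff with A83-01 over soft changed sign under the 2 other scalings. At 3 counts, or about 0.09 CPM, lower levels could not be measured.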
